A study of Mus musculus with 3 samples.

Results

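The interleukin 1 family and its receptors were followed through 8 genes, taken by symbol from the gene table of the deposited matrix: the ligands Il1a, Il1b, Il18 and Il33, the receptor antagonist Il1rn, the decoy receptor Il1r2, and the signalling receptors Il1r1 and Il1rl1. They are 8 of 31053 genes, and each of the 8 symbols was found. The mice were wild-type C57Bl/6 animals bought at 6 weeks of age. The day 0 group was untreated. The day 7 and day 42 groups drank water with 3% dextran sulfate sodium (DSS), a polymer that injures the lining of the gut, for the first 6 days. Distal colon and anus of 5 mice were pooled on each day, so each day is 1 library of the anorectal junction, where the columnar epithelium of the colon meets the squamous epithelium of the anus. There is no replicate of any day and no test between days. Intervals given here are 95% exact Poisson intervals for levels and exact Clopper-Pearson intervals for shares. They cover counting error only, not the spread between mice or pools.

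Interleukin 1 alpha and interleukin 1 beta bind the same receptor, IL1R1, which then recruits an accessory chain and signals through MyD88 and IRAK kinases to NF-kB. Interleukin 1 receptor antagonist occupies IL1R1 without signalling, and IL1R2 binds the ligands but lacks a signalling domain. Interleukin 33 is a nuclear alarmin of epithelial, endothelial and stromal cells that signals through ST2, the product of Il1rl1, while interleukin 18 is matured by inflammasome caspases as interleukin 1 beta is.

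In the GENCODE M21 annotation of GRCm38, Il1a and Il1b are neighbours on the minus strand of chromosome 2, at 129299610 to 129309972 and 129364570 to 129371139. Il1rn lies on the plus strand of the same chromosome at 24336853 to 24351494. The receptors Il1r2 (40074079 to 40125231), Il1r1 (40225080 to 40317257) and Il1rl1 (40429570 to 40465415) follow each other on the plus strand of chromosome 1. Il18 is on chromosome 9 at 50554827 to 50581840, and Il33 is on chromosome 19 at 29925114 to 29960718. The annotation of Il1rl1 holds a transcript of 567 codons that ends at 40465415, for the membrane receptor ST2, and transcripts of 337 codons that end at 40448148 and 40446723, for soluble ST2, a secreted decoy. The 3' libraries were counted per gene, so the membrane and soluble forms of Il1rl1, and the secreted and intracellular forms of Il1rn, cannot be told apart here.

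RefSeq start regions on GRCm38.p6 matched all 8 members, with 13 windows that run from 250 bases before to 50 bases after a start. The windows of Il1a and Il1b are shown because these neighbouring ligands had their highest levels in the same myeloid cells, and both windows of Il1rl1 are shown because it had the largest ratios between days in fibroblasts. Motifs were searched on both strands, and matches are printed in capitals. The TATA box was searched as TATAAA, which 13.6% of all 32851 RefSeq windows of this length hold. AP-1 was searched as TGANTCA, held by 7.81% of them. The letters for C/EBP were TTGCNNAA, held by 10.8%. Those for GATA were AGATAA, held by 11.2%. The NF-kB consensus, held by 8.46%, is in none of the windows printed. No motif overlaps another in those windows. The Il1a window, chr2:129309923-129310222 on the minus strand, holds a TATA box at position -32 from the start and AP-1 at -12. The Il1b window, chr2:129371090-129371389 on the minus strand, holds a TATA box at -31. The upstream Il1rl1 window, chr1:40429320-40429619 on the plus strand, holds GATA at -217 and C/EBP at -34. The second Il1rl1 window, chr1:40439379-40439678 on the plus strand, holds GATA, read on the other strand, at -103. These matches describe letters in the reference and say nothing of binding.
Il1a: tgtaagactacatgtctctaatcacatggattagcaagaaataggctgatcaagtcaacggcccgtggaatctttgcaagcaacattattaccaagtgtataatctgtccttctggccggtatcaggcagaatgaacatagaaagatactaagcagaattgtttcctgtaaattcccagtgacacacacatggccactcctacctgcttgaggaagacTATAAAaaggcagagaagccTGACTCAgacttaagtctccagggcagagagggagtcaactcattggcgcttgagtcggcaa
Il1b: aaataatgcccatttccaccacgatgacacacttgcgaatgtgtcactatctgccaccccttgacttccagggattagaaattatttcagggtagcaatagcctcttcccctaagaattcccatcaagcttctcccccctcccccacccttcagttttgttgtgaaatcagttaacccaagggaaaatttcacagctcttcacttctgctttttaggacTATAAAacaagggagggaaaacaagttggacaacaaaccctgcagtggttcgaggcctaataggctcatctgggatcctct
Il1rl1, upstream start: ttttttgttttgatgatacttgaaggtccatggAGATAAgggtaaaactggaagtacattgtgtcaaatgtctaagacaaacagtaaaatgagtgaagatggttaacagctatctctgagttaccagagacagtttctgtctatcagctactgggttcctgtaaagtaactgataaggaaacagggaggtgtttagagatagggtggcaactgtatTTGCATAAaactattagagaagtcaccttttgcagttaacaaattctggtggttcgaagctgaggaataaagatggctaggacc
Il1rl1, second start: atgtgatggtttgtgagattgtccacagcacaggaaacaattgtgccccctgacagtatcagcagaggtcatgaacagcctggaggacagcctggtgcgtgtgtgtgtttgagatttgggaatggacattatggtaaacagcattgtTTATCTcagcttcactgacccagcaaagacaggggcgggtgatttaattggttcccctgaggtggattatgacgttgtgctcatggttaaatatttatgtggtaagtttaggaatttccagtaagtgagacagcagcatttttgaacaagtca

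The libraries held 11037, 14376 and 11667 cells on days 0, 7 and 42, with 89241138, 151886649 and 72258639 unique molecular identifiers (UMIs, each 1 captured molecule). The median cell had between 5708 and 6217.5 UMIs. Cells with over 20% mitochondrial UMIs were 32.1% of the day 0 library, 14.9% on day 7 and 12.97% on day 42. Cell barcodes shared between libraries numbered 44, 40 and 55 for the 3 pairs, and none was in all 3. The cell types are the authors' annotation, with 14 names over 29 clusters. In each type with at least 50 cells its own marker list was the highest of the lists compared. The exceptions were T cells on day 7 and the type labelled Macrophages/APCS. The erythroid list was compared in red blood cells only, so globin RNA in other types is not covered. The type labelled Unknown has no list of its own and was led by the keratinocyte list on all 3 days (1600, 2943 and 3947 CPM, counts per 1e6 UMIs). In T cells on day 7 the neutrophil list summed to 4471 CPM and the T cell list to 2433. Macrophages/APCS were led by the dendritic and Langerhans cell list on both days, which summed to 32426 CPM on day 0 and 9476 on day 7, beside 13785 and 8255 for the macrophage list. They are called macrophages here only as short for the label. Neutrophils were 5 cells on day 0, 1513 on day 7 and 448 on day 42, with a median of 2585 UMIs on day 7 and 662 on day 42. Neutrophils on day 0 and macrophages on day 42 (44 cells) were too few for a level.

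A level below is the UMIs of a gene summed over all cells of a type and day, in CPM. These 3' counts were not divided by transcript length, so levels are compared between types and days of 1 gene, not between genes. The shares and ratios of UMIs of different genes given below are uncorrected for length. Days were compared within a type by a log2 ratio after adding 10 CPM to each side, for genes with at least 10 CPM on either day and types with at least 50 cells on both, and a ratio of at least 1 in size is called past 2-fold. Beside each first count of members stands the percentage of all measured genes of that type past 2-fold, in either direction. Day 7 and day 42 were both set against the same day 0 library, so those comparisons are not independent of each other.

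Over whole libraries, Il1b was at 23.5 CPM on day 0, 503 on day 7 and 104 on day 42. Il1a was at 0.639, 15.8 and 6.16 CPM. Il1r2 was at 17.7, 65.4 and 23.1 CPM, Il1rl1 at 1.86, 8.78 and 1.56, and Il33 at 9.56, 18.2 and 31.9. Of these 5 genes, 4 were highest on day 7, and Il33 was highest on day 42. Il1rn (56.3, 53.5 and 66.6), Il1r1 (13.6, 11.3 and 11.6) and Il18 (44.1, 28.5 and 30.1) moved less. Whole-library values move with the cell mixture, since keratinocytes were 3316, 9035 and 7970 cells on the 3 days, colonocytes 3749, 1015 and 1489, and fibroblasts 1436, 316 and 222. Fewer cells of a type in a suspension cannot be told apart here from fewer in the tissue.

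**Figure D1:**
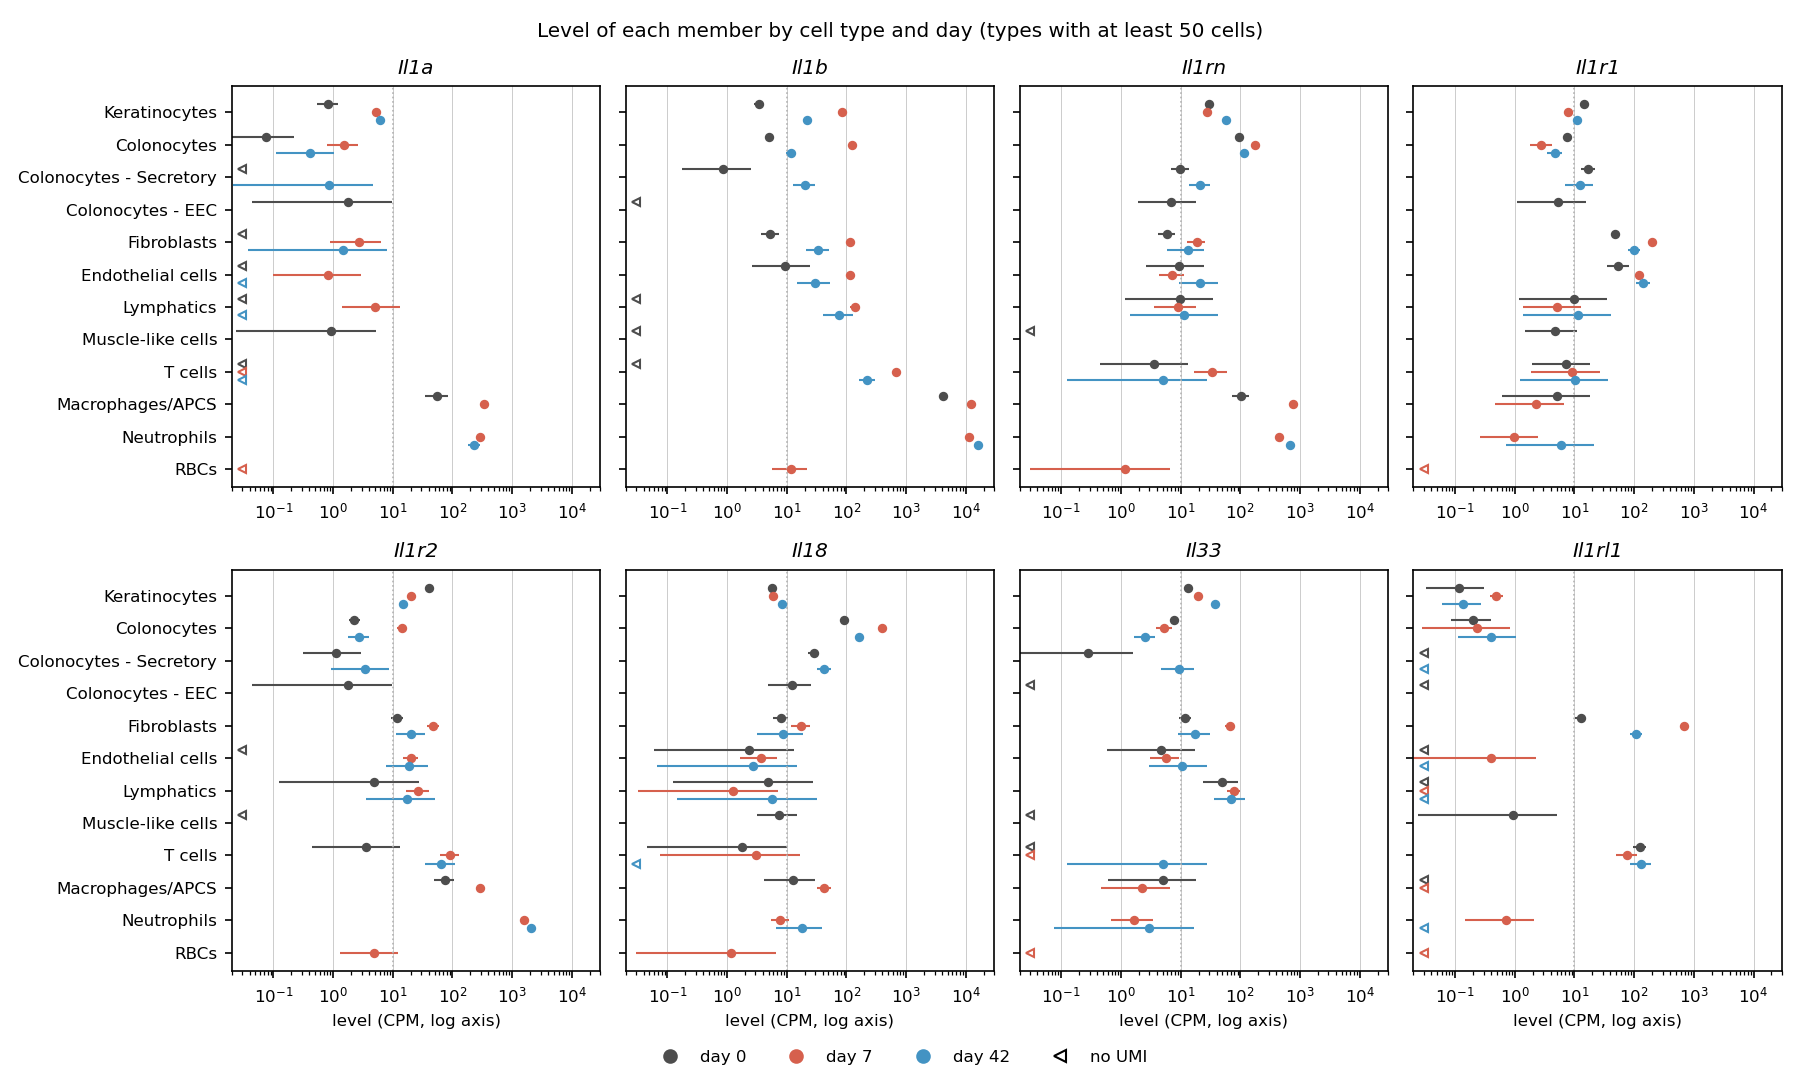
Level of each of the 8 genes in CPM (log axis) in every cell type with at least 50 cells on that day, coloured by day; bars are exact Poisson 95% intervals and triangles at the left edge mark types with no UMI. Il1b, Il1a, Il1rn and Il1r2 are highest in neutrophils or macrophages, Il18 in colonocytes, Il33 in lymphatics, Il1r1 in fibroblasts and endothelial cells, and Il1rl1 in fibroblasts and T cells.

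Il1b, the inflammasome-processed ligand, was at its highest in myeloid cells. In macrophages it stood at 4198 CPM on day 0 (interval 3998 to 4405) and 12398 on day 7 (12209 to 12589), with a UMI in 66 of 91 and 268 of 278 cells. In neutrophils it stood at 11232 CPM on day 7 (11131 to 11334) and 15778 on day 42 (15356 to 16209), with a UMI in 99.1% and 97.5% of cells. The macrophage level on day 7 was past 2-fold over day 0 (log2 ratio 1.56). The neutrophil marker list in macrophages summed to 22.9 CPM on day 0 and 4745 on day 7, with S100a8 in 131 of the 268 Il1b-positive macrophages of day 7, while their dendritic and Langerhans list went from 32426 to 9476 CPM. The part of neutrophil RNA and of a changed mixture under this label in the macrophage values of Il1b, and of Il1a, Il1rn, Il1r2 and Il18 below, was not tested. The neutrophil level on day 42 was higher than on day 7 by 0.49 on the log2 scale, short of 2-fold, beside a median of 0.30 over all genes in that comparison and a neutrophil marker sum of 248216 CPM on day 7 and 113042 on day 42. The macrophage and neutrophil intervals of day 7 do not overlap, but their order turned with median-of-ratios size factors. With cells thinned to 1000 UMIs each, the share of macrophages with Il1b was 67.9% and 93.6%. In thinned neutrophils the share was 97.6% and 95.6%, with 45 cells kept and 403 shallower ones left out on day 42.

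The cell types holding the Il1b transcripts changed with the mixture. At day 0 macrophages held 78.9% of the library's Il1b UMIs and colonocytes 9.79%. At day 7 neutrophils held 61.8%, macrophages 21.5% and keratinocytes 13.9%. At day 42 neutrophils held 70.6%, keratinocytes 16.9% and macrophages 9.08%. Neutrophils therefore held most Il1b UMIs on both days after DSS, and macrophages on day 0.

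**Figure D2:**
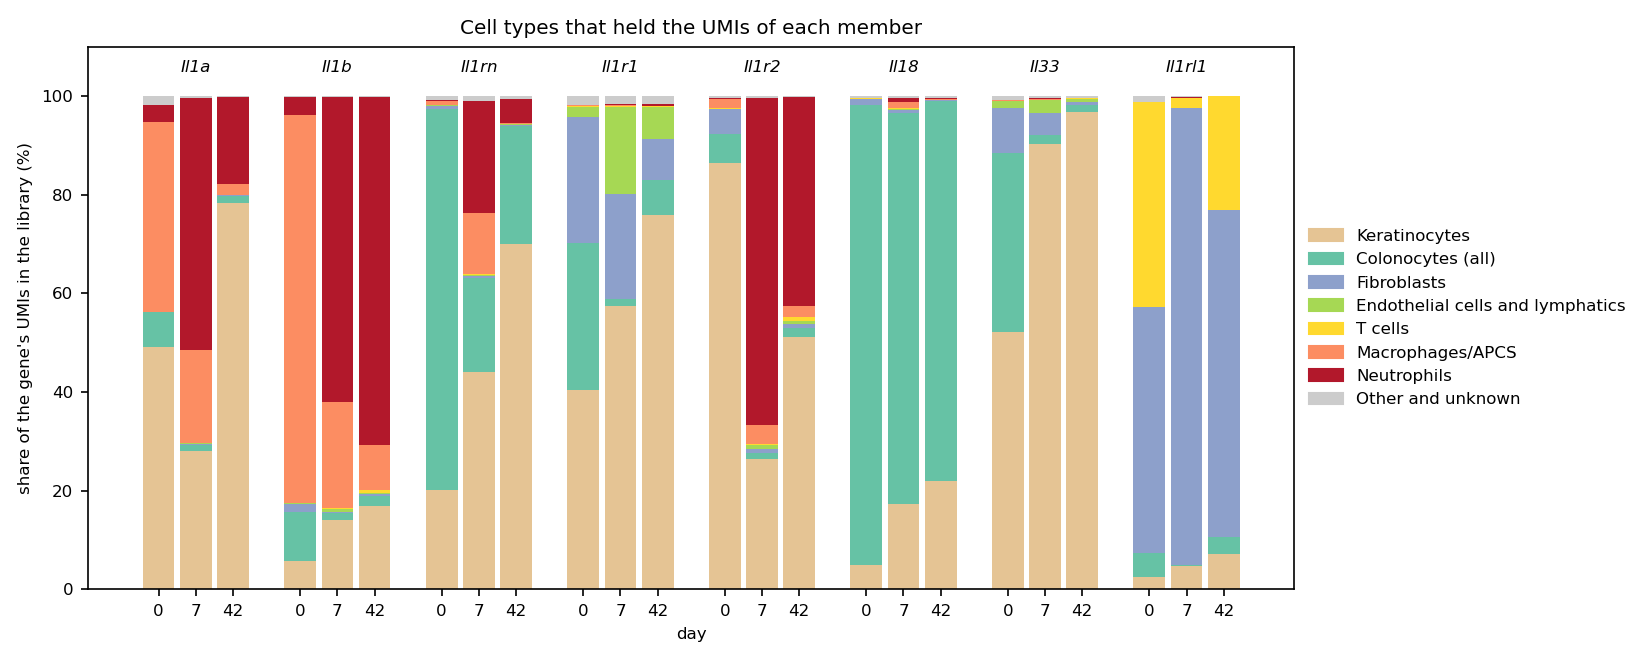
Percentage of each gene's UMIs in a library that lay in each of the authors' cell types, for days 0, 7 and 42, with 1 stacked bar per gene and day. The Il1b bars pass from macrophages on day 0 (78.9%) to neutrophils on days 7 and 42 (61.8% and 70.6%), and the Il1rn bars from colonocytes (76.5%) to keratinocytes (44.1% and 69.9%).

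Il1b was also counted outside myeloid cells, at far lower levels. In keratinocytes it was at 3.47 CPM on day 0, 82.9 on day 7 and 21.8 on day 42, with a UMI in 0.573%, 19.6% and 2.65% of cells. In colonocytes it was at 5.15, 124 and 11.9 CPM, in 0.613%, 26.2% and 2.69% of cells. Thinned to 1000 UMIs, the shares were 0.0914%, 7.94% and 1.19% in keratinocytes and 0.189%, 14.4% and 1.09% in colonocytes. Clusters differed in level and in their part of each type. On day 7 keratinocyte cluster 12 was at 422 CPM and cluster 1 at 25.6. Cluster 12 was 1.54% of keratinocytes on day 0 and 18.5% on day 7. Cluster 22, which was 279 of the 1015 colonocytes on day 7, held 52.2% of their Il1b UMIs. Within colonocyte cluster 2 Il1b was at 2.20, 73.1 and 9.93 CPM on the 3 days. Red blood cells, which should lack the transcript, had a UMI in 3.81% of 210 cells on day 7, at a median of 4079 UMIs, against 11481 in keratinocytes and 4027 in colonocytes. Fibroblasts (5.35, 113 and 33.6 CPM) and endothelial cells (9.49, 115 and 29.5 CPM) had the same order of days. Secretory colonocytes were at 0.853 CPM on day 0 and 20.1 on day 42, with too few cells for a level on day 7. Lymphatics and T cells had no Il1b UMI on day 0. Against a floor of 3 UMIs in that type and library, Il1b in lymphatics was at least 9.60-fold higher on day 7 and at least 5.10-fold higher on day 42. In T cells it was at least 126-fold higher on day 7 and at least 40.7-fold higher on day 42. The day 42 levels rest on 4 cells in each type, with 44 UMIs in T cells, of which 6 were in cells without S100a8, and 13 UMIs in lymphatics, so no UMI was left without the 10 highest cells. At day 7 the 10 cells with most Il1b held 89.4% of the T cell UMIs, 89.8% of the endothelial, 90.3% of the fibroblast and 91.0% of the lymphatic ones.

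S100a8, an abundant neutrophil gene, was counted in the same non-myeloid cells. Of the keratinocytes with Il1b on day 7, 1405 of 1771 (79.3%) also had S100a8, as did 236 of 266 (88.7%) of the colonocytes. The shares among cells without Il1b were not counted, and day 7 keratinocytes held 76641 S100a8 UMIs over 9035 cells. These shares alone therefore do not show that the genes went together. At day 7 there were 12.6 Il1b UMIs per 100 S100a8 UMIs in neutrophils, 13.9 in keratinocytes, 15.1 in colonocytes, 9.01 in fibroblasts, 10.0 in endothelial cells, 14.3 in lymphatics and 7.09 in red blood cells. At day 42 the neutrophil value was 41.9, with 45.6 in keratinocytes, 35.6 in colonocytes, 44.4 in secretory colonocytes and, lower, 19.3 in fibroblasts. In T cells, 148 of the 227 Il1b UMIs of day 7 were in cells without S100a8, and T cells stood apart with 39.8 on day 7 and 147 on day 42, and macrophages with 605 on day 7. The summed level of the 6 neutrophil markers, with neutrophils themselves at 248216 CPM on day 7, was 23.5, 1566 and 188 CPM in keratinocytes on the 3 days, 0.879, 2203 and 104 in colonocytes, and 5.97, 3007 and 444 in fibroblasts. Among cells without an S100a8 UMI, an alternative chosen after seeing the data, the Il1b log2 ratio of day 7 to day 0 was 0.32 in colonocytes and 0.42 in fibroblasts, below 2-fold, and 1.12 in keratinocytes, 1.57 in endothelial cells, 1.58 in lymphatics and 6.11 in T cells. With all cells the ratios were 3.14, 3.00, 2.79, 2.68, 3.92 and 6.12 in that order. Leaving out cells by S100a8 also leaves out cells that express it themselves, and the part that free neutrophil RNA or joined cells have in these Il1b levels was not tested.

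**Figure D3:**
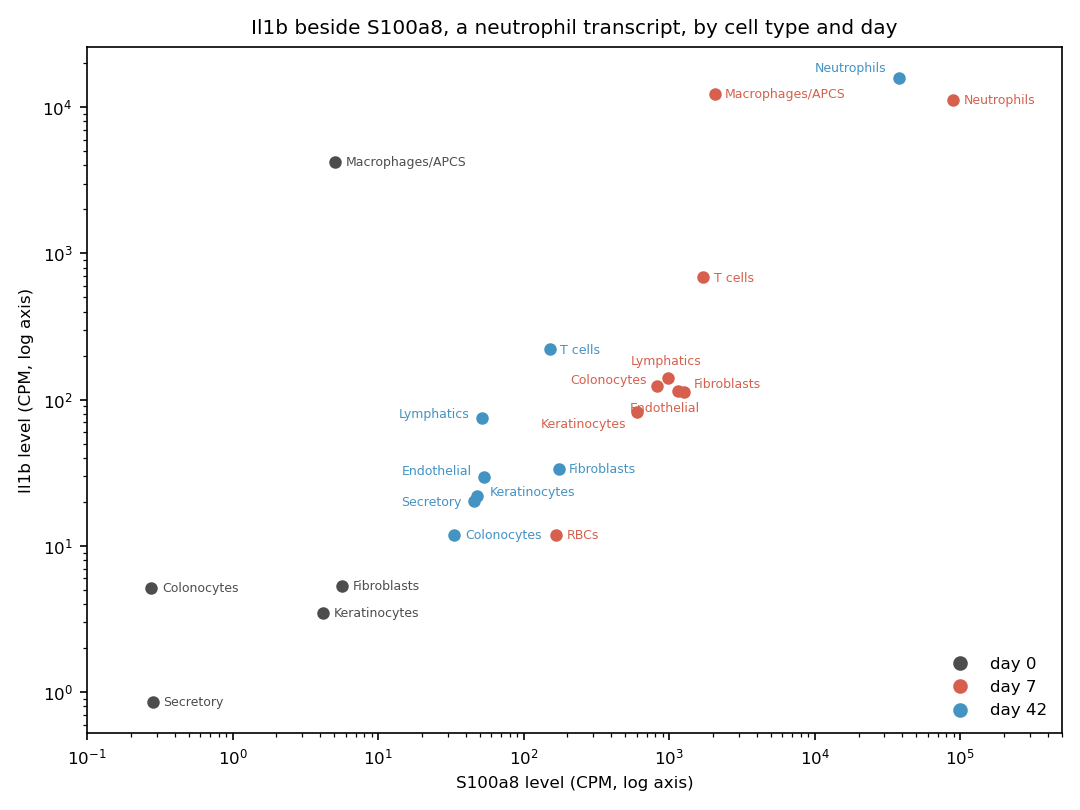
Il1b level against S100a8 level in CPM for each cell type with at least 50 cells and a UMI of both genes (both axes log), coloured by day. At day 7 the epithelial, stromal and vascular types lie near the neutrophil ratio of 12.6 Il1b UMIs per 100 S100a8 UMIs, while macrophages, at 605, lie far above it.

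Il1a, the ligand that is active without inflammasome cleavage, shared the myeloid cells of Il1b. In macrophages it was at 55.9 CPM on day 0 (35.0 to 84.6) and 342 on day 7 (311 to 374), in 11 and 81 cells, a log2 ratio of 2.42. All 11 and all 81 of those cells also had Il1b. So did 55 of the other 80 macrophages on day 0 and 187 of the other 197 on day 7. The intervals of these shares overlap on both days. In neutrophils it was at 292 CPM on day 7 (276 to 309) and 232 on day 42 (184 to 290), with overlapping intervals and a log2 ratio of -0.32. Keratinocytes, which are known to store the protein, were at 0.824, 5.23 and 6.00 CPM, under the 10 CPM needed for a ratio on every day. Among them cluster 5 reached 17.2, 30.5 and 16.7 CPM. Through their number keratinocytes still held 49.1%, 28.0% and 78.4% of the library's Il1a UMIs. T cells had no Il1a UMI on any day, and red blood cells had none on day 7.

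Il18 was at its highest in colonocytes on each day. It stood at 89.6 CPM in colonocytes on day 0 (86.7 to 92.6), 398 on day 7 (385 to 412) and 164 on day 42 (156 to 172), in 42.2%, 54.6% and 44.6% of cells. Thinned shares were 8.92%, 22.1% and 14.7%, against 0.457% of T cells with a UMI on day 0, where the median T cell had 2064 UMIs and the median colonocyte 9679. Day 7 was past 2-fold over day 0 (2.03) and day 42 past 2-fold under day 7 (-1.23), while day 42 over day 0 was 0.80. The colonocyte clusters did not keep their shares: within cluster 2 alone Il18 was at 158, 431 and 225 CPM, with ratios of 1.39 for day 7 over day 0 and -0.91 for day 42 over day 7. The day 42 ratio was thus under 2-fold within cluster 2. Cluster 22, which was 279 of the 1015 colonocytes on day 7, had Il18 at 238 CPM beside the keratinocyte gene Krt14 at 5421 CPM and S100a8 at 4354 CPM. Secretory colonocytes had 28.2 CPM on day 0 and 42.8 on day 42. Macrophages were at 12.7 CPM (5 UMIs) on day 0 and 42.2 (56 UMIs) on day 7, a ratio of 1.20. Colonocytes held 90.6%, 79.1% and 74.5% of all Il18 UMIs, and keratinocytes, at 5.71, 5.82 and 8.22 CPM, held 4.93%, 17.3% and 21.97%.

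Il33, the alarmin, had its highest level in lymphatics, with 49.0 CPM on day 0 (23.5 to 90.0), 77.4 on day 7 (59.2 to 99.5) and 69.1 on day 42 (35.7 to 121). Those intervals overlap, and the ratios were 0.57 and 0.42 against day 0. Fibroblasts came next on day 7, at 66.1 CPM (54.9 to 79.0), within the counting error of lymphatics. Keratinocytes were lower, at 13.1 CPM (11.9 to 14.4), 19.5 (18.8 to 20.3) and 38.4 (36.8 to 40.0), but held 52.2%, 90.4% and 96.7% of all Il33 UMIs. Colonocytes held 36.1%, 1.66% and 1.08% of them. They were at 7.74 CPM on day 0, where cluster 7 had 286 of their 308 Il33 UMIs. Day 42 over day 0 was 1.07 in keratinocytes, just past 2-fold. The share of keratinocytes with a UMI was 8.11%, 8.08% and 11.9%, and 1.43%, 1.58% and 3.01% after thinning, beside 0.463% of neutrophils on day 7.

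The keratinocyte clusters carried Il33 very unequally. Cluster 5, whose Krt14 level was 5395, 20536 and 19904 CPM on the 3 days, was at 39.6 CPM on day 0, 166 on day 7 and 88.9 on day 42. Cluster 13 was at 57.4 CPM on day 0 (48.2 to 67.9), above cluster 5 with an overlapping interval (29.7 to 51.8), and at 28.5 and 50.1 CPM later. Cluster 12 was at 81.4 CPM on day 42 (47.4 to 130), within the counting error of cluster 5. Cluster 5 made up 2.62%, 1.79% and 27.01% of keratinocytes and held 11.9%, 22.9% and 74.0% of their Il33 UMIs. Cluster 3 held 49.6% on day 7, and clusters 9 and 13 held 30.6% each on day 0. Within cluster 5 the ratio was 1.83 for day 7 over day 0 and 0.99 for day 42 over day 0. With equal weight given to the clusters, the day 42 ratio over all keratinocytes was 0.63, under 2-fold.

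Fibroblasts had Il33 at 12.1, 66.1 and 17.5 CPM on the 3 days, in 52, 39 and 9 cells. Their day 7 level was past 2-fold over day 0 (1.79) and the day 42 level past 2-fold under day 7 (-1.47). The 10 cells with most Il33 held 65.3% of the day 7 UMIs, and without the top 10 cells on each day the ratio was 0.95. Of the 39 Il33-positive fibroblasts on day 7, 18 (46.2%) had Pi16, a marker of adventitial fibroblasts, against 36 of the other 277, at median depths of 6728 and 4819 UMIs. After thinning it was in 18.4% against 8.57%. On day 0 it was in 38.5% of 52 against 7.01%, and in 21.6% against 3.65% after thinning. Pi16 was picked after its values were seen.

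**Figure D4:**
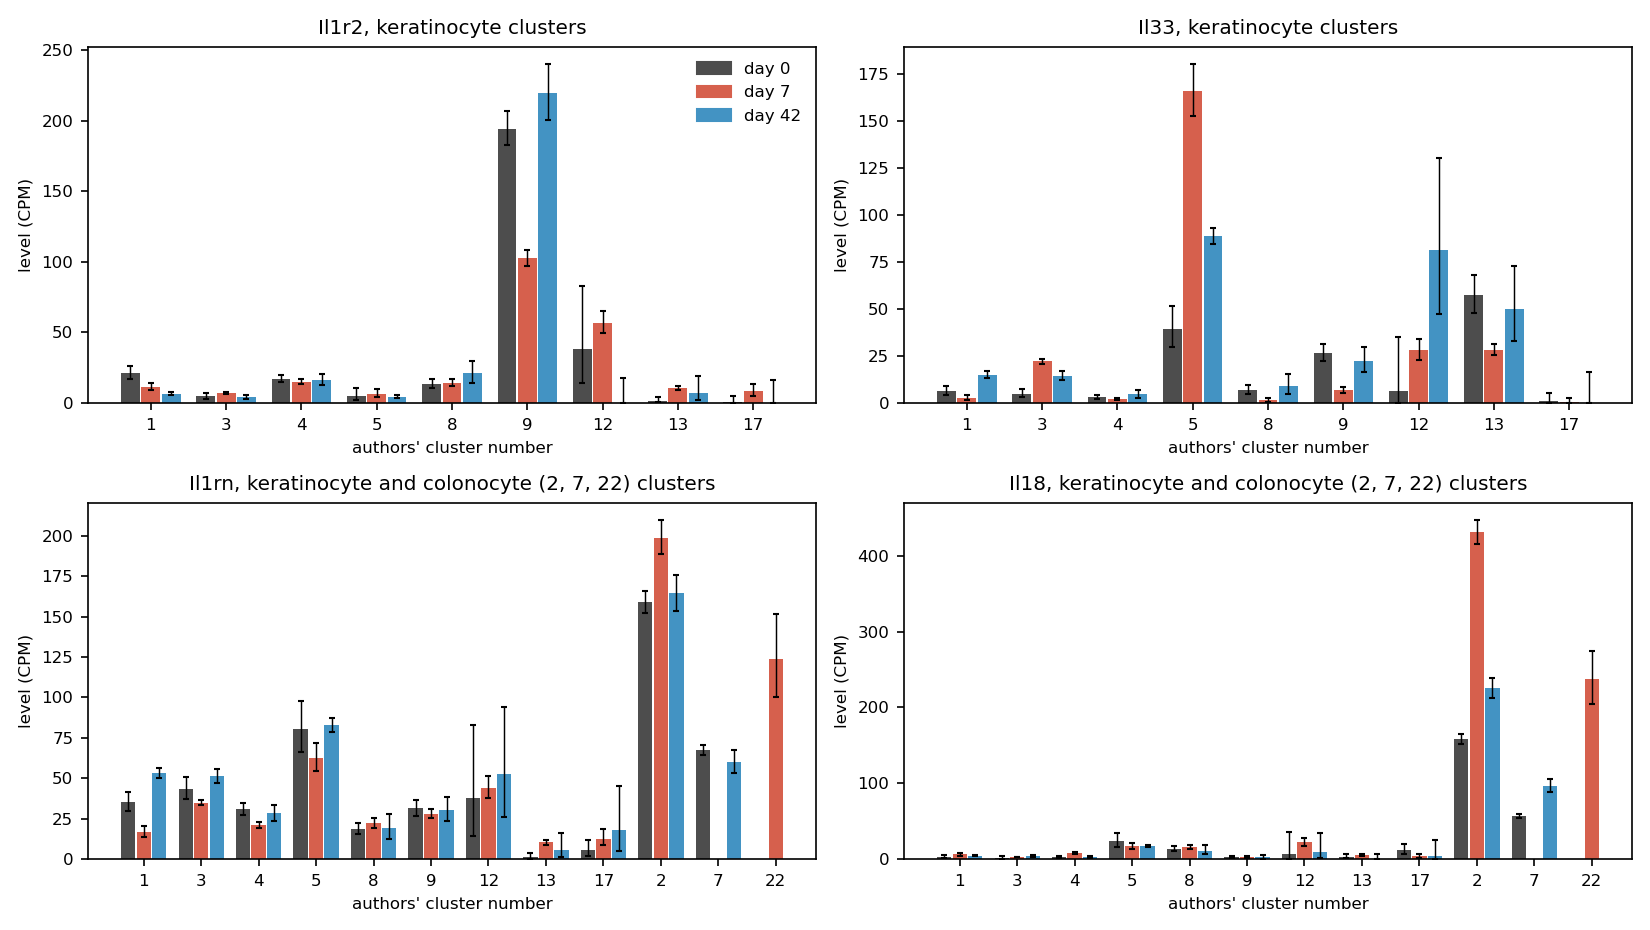
Levels of Il1r2 and Il33 in keratinocyte clusters, and of Il1rn and Il18 in keratinocyte and colonocyte clusters (2, 7 and 22), in CPM by day, with exact Poisson 95% intervals. Il33 was highest in cluster 13 on day 0 (57.4 CPM) and in cluster 5 on days 7 and 42 (166 and 88.9 CPM), and cluster 9 is the high keratinocyte cluster for Il1r2 (194, 103 and 220 CPM).

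Il1rn, the receptor antagonist, was found in epithelium and in myeloid cells. Colonocytes were at 96.6 CPM on day 0 (93.6 to 99.7), 179 on day 7 (170 to 188) and 114 on day 42 (108 to 121), with none of the ratios past 2-fold (0.83, 0.22 and, for day 42 over day 7, -0.61). Within colonocyte cluster 2 Il1rn was at 159, 199 and 164 CPM, with ratios of 0.31, 0.05 and -0.26. In keratinocytes it was at 29.7, 27.9 and 57.9 CPM, with ratios of -0.07, 0.78 and 0.84. With equal weight to clusters the last 2 were 0.20 and 0.33. Within clusters the day 42 over day 0 ratio was 0.03 in cluster 5, which was 2.62% of keratinocytes on day 0 and 27.01% on day 42, and 0.48 in cluster 1, which was 13.4% and 38.2%. For day 42 over day 7 it was 0.35 in cluster 5. In cluster 1 that ratio was 1.23, past 2-fold, with 16.8 CPM on day 7 and 53.0 on day 42. Macrophages had 102 CPM on day 0 (72.6 to 138) and 756 on day 7 (710 to 804), a ratio of 2.78, and a UMI in 20 of 91 and 169 of 278 cells. Neutrophils had 441 CPM on day 7 and 679 on day 42, a ratio of 0.61 beside the same median of 0.30 over all genes. T cells had 2, 11 and 1 UMIs. So of the types with a level above 50 CPM, the macrophages alone were past 2-fold. Colonocytes held 76.5% of Il1rn UMIs on day 0, and keratinocytes 44.1% on day 7 and 69.9% on day 42.

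Antagonist and ligands were set against each other as the share of Il1rn among Il1rn, Il1a and Il1b UMIs, which are not corrected for length. In colonocytes that share was 94.9%, 58.8% and 90.3% on days 0, 7 and 42, and in keratinocytes 87.4%, 24.1% and 67.6%. In macrophages it was 2.33% on day 0 and 5.60% on day 7, and in neutrophils 3.68% on day 7 and 4.07% on day 42. The epithelial shares on day 7 contain the Il1b UMIs of cells that also had S100a8.

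Il1r2, the decoy receptor, was highest in neutrophils, at 1570 CPM on day 7 (1533 to 1609) and 2109 on day 42 (1956 to 2270), in 89.8% and 66.7% of cells. Macrophages had 73.7 CPM on day 0 (49.4 to 106) and 286 on day 7 (258 to 316), a ratio of 1.82. Keratinocytes were the main epithelial cells with Il1r2, at 40.2 CPM (38.1 to 42.4), 20.4 (19.6 to 21.2) and 14.7 (13.7 to 15.7), in 19.1%, 13.6% and 6.56% of cells and 3.93%, 3.21% and 1.92% after thinning. Red blood cells had a UMI in 1.90% on day 7. The 3 keratinocyte intervals do not overlap, and the ratio to day 0 was -0.72 on day 7, under 2-fold, and -1.03 on day 42, past it.

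The keratinocyte Il1r2 UMIs lay mostly in cluster 9, which held 72.6%, 50.1% and 56.1% of them. This cluster was high in Krt14 (9326, 10602 and 10746 CPM) and Krt5 (5045, 4561 and 4561 CPM), keratins of the basal layer. Its own Il1r2 level was 194 CPM on day 0, 103 on day 7 and 220 on day 42, with ratios of -0.86, 0.17 and, for day 42 over day 7, 1.03. Cluster 9 was 18.0%, 11.1% and 5.72% of keratinocytes. With equal weight to clusters the day 42 ratio of all keratinocytes was -0.07, under 2-fold. Of the Il1r1 and Il1r2 UMIs together, Il1r2 made up 94.5%, 93.8% and 96.6% in cluster 9 and 17.1%, 37.9% and 22.8% in cluster 5.

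Other types had Il1r2 at levels far below neutrophils, and on day 7 T cells, fibroblasts and lymphatics stood above keratinocytes, the lymphatics within counting error. In fibroblasts it was at 11.9, 47.5 and 20.4 CPM, a day 7 ratio of 1.39, which was 0.71 among cells without S100a8. T cells were at 3.62, 90.4 and 65.2 CPM, with 2, 30 and 13 UMIs. Endothelial cells had no UMI on day 0 and were at least 2.79-fold above the floor on day 7 and at least 2.64-fold on day 42. The endothelial day 7 ratio of 1.58 was 0.92 among cells without S100a8 and 0.68 without the 10 highest cells. The lymphatic day 7 ratio of 1.30 was -0.57 among cells without S100a8 and -0.46 without the highest Scrublet scores. Lymphatics were at 4.90, 26.7 and 17.3 CPM, with 1, 21 and 3 UMIs, and colonocytes 2.26, 14.1 and 2.72 CPM. At day 7 there were 1.75 Il1r2 UMIs per 100 S100a8 UMIs in neutrophils, 1.72 in colonocytes, 1.74 in endothelial cells, 2.71 in lymphatics, 3.41 in keratinocytes, 3.79 in fibroblasts, 5.26 in T cells and 13.9 in macrophages. The part of neutrophil RNA in those Il1r2 levels was not tested.

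Il1r1, the signalling receptor, was highest in fibroblasts and endothelial cells, while lymphatics were at 9.79, 5.08 and 11.5 CPM. In fibroblasts it was at 47.3 CPM on day 0 (42.2 to 52.9), 199 on day 7 (180 to 221) and 101 on day 42 (78.3 to 127), in 15.8%, then in 158 of 316 cells, then in 23.0%. Endothelial cells had 54.6 CPM (34.6 to 81.9), 121 (108 to 135) and 142 (107 to 186), in 19 of 100, 147 of 312 and 33 of 122 cells. The fibroblast and endothelial intervals overlapped on days 0 and 42, and fibroblasts were the higher on day 7. Thinned shares were 4.73%, 15.9% and 10.3% in fibroblasts and 3.12%, 10.4% and 13.5% in endothelial cells, beside 0.0703% in neutrophils on day 7. The fibroblast ratio was 1.87 on day 7 and 0.95 on day 42, the endothelial one 1.02 and 1.24. The endothelial ratio on day 7 was 0.85 with the mean of CPM per cell and 0.90 with size factors, under 2-fold, and on day 42 it was 0.98 with the mean of CPM per cell. Keratinocytes had 14.4, 7.67 and 10.96 CPM, and colonocytes 7.54, 2.79 and 4.64.

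Il1r2 made up 20.2%, 19.2% and 16.9% of the fibroblast Il1r1 and Il1r2 UMIs, and 99.9% and 99.7% of the neutrophil ones. The endothelial share was 0%, 14.1% and 11.7%, and the keratinocyte share 73.6%, 72.6% and 57.2%. On this measure, uncorrected for length, neutrophils had mostly decoy transcripts and fibroblasts and endothelial cells mostly Il1r1. Without cluster 9, a setting added after seeing the data, Il1r2 was 46.4%, 59.2% and 37.6% of these UMIs in keratinocytes, so it was the larger part only on day 7.

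Il1rl1, which encodes ST2, was counted mainly in fibroblasts and T cells. Fibroblasts were at 12.7 CPM on day 0 (10.1 to 15.7), 676 on day 7 (639 to 715) and 109 on day 42 (86.1 to 137). The UMIs came from 17 of 1436 cells (1.18%), 62 of 316 (19.6%) and 18 of 222 (8.11%), and the 10 highest cells held 90.4%, 60.1% and 89.3% of them. The ratios were 4.92 on day 7, 2.40 on day 42 and -2.52 between them, and they stayed past 2-fold without the 10 highest cells on each day (4.74, 1.01 and -3.73). Thinned shares were 0.305%, 13.1% and 4.93%, against 0.321% of keratinocytes with a UMI on day 7, at a median of 11481 UMIs beside 5015 in fibroblasts. No UMI was found in macrophages on days 0 and 7 or in lymphatics on any day. Fibroblasts held 83 of the 166 Il1rl1 UMIs on day 0, then 92.7% and 66.4% of all Il1rl1 UMIs.

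On day 7 the Il1rl1-positive fibroblasts had Il33 UMIs less often than the others. None of the 62 had one (interval 0 to 5.78%), against 39 of 254 (15.4%, 11.2 to 20.4%), although the former were deeper, with a median of 7000 against 4808.5 UMIs. The interval bounds the share of cells with a UMI, not of cells that express the gene. The other days do not show it: on day 0 it was none of 17 (0 to 19.5%) against 3.66% of 1419, which cannot tell them apart, and on day 42 it was 1 of 18 (5.56%) against 3.92% of 204. After thinning on day 7 the shares were 0% of 58 and 5.78% of 225. Il1r1 was in 61.3% of the Il1rl1-positive cells and 47.2% of the others, and in 12.1% and 13.8% after thinning. Other genes, chosen after their values were seen, differed more. Il11, a stromal cytokine, was in 83.9% against 30.3%, Mmp3, a matrix protease, in 79.0% against 22.8%, and Grem1, a BMP antagonist, in 53.2% against 21.7%. Thinned, these were 67.2% against 15.6%, 65.5% against 9.33% and 27.6% against 10.2%. Pi16 was in 0% against 21.3%. These are day 7 values, and positive cells were few on the other days. Il11 was in 4 of 17 against 1.83% on day 0 and in 6 of 18 against 5.39% on day 42. Mmp3 was in none of 17 against 2.33% on day 0 and in 5 of 18 against 5.88% on day 42. Grem1 was in none of 17 against 7.26% and none of 18 against 10.8%, with intervals up to 19.5% and 18.5% that give no direction. On day 7 the general fibroblast marker Pdgfra was in 66.1% against 68.5%, and the mast cell gene Cpa3 and the T cell gene Cd3e were in none of the 62 and none of the other 254. The mast cell gene Kit was in 1 of the 62 and 2 of the 254. The mast cell list summed to between 1.46 and 1.64 CPM in fibroblasts over the 3 days. Mast cells and T cells are known carriers of ST2, hence these genes.

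**Figure D5:**
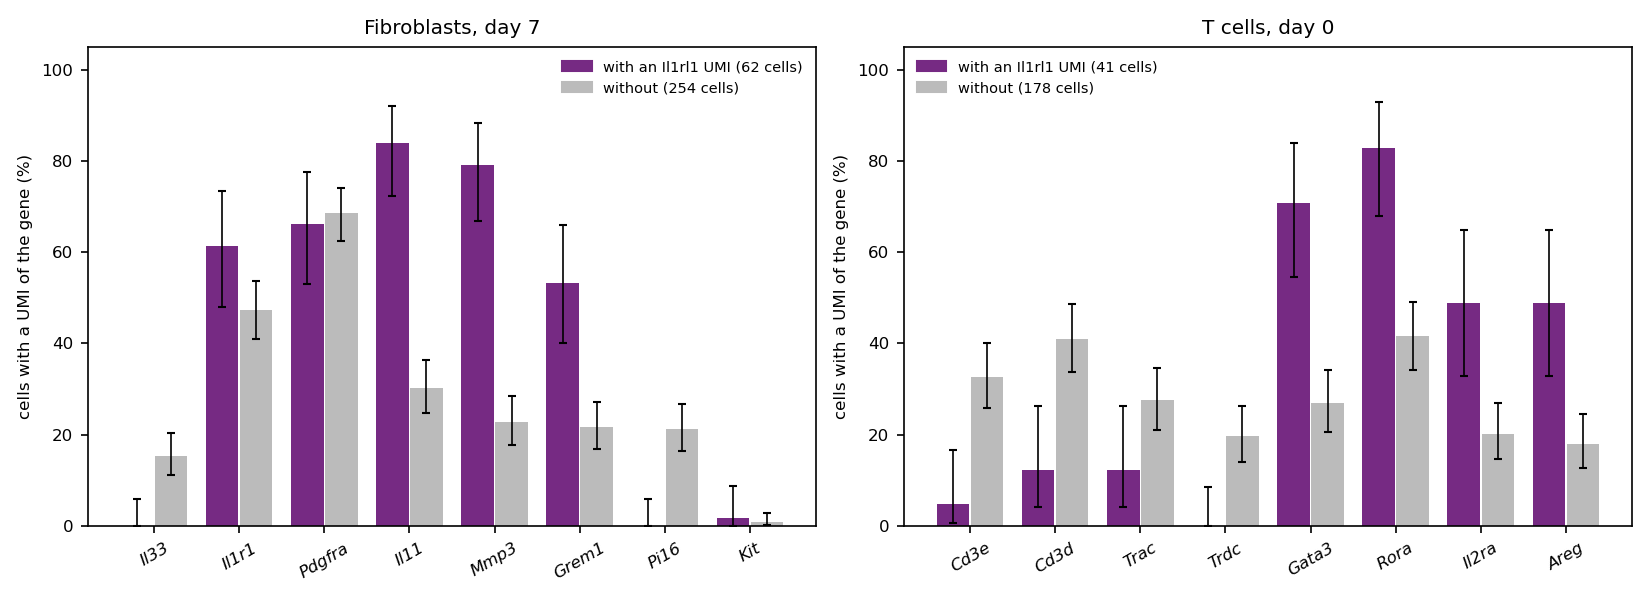
Percentage of cells with a UMI of each listed gene among fibroblasts on day 7 and T cells on day 0, split by whether the cell had an Il1rl1 UMI, with exact Clopper-Pearson 95% intervals. In fibroblasts Il33 was in 0% of positive and 15.4% of other cells and Il11 in 83.9% and 30.3%; in T cells Gata3 was in 70.7% and 26.97% and Cd3e in 4.88% and 32.6%.

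The type labelled T cells had Il1rl1 at 125 CPM on day 0 (97.2 to 158), 75.4 on day 7 (48.8 to 111) and 130 on day 42 (85.2 to 191), in 41 of 219, 12 of 118 and 15 of 121 cells. The intervals overlap and no ratio was past 2-fold (-0.66, 0.06 and 0.72). At day 0 the 41 positive cells had a median of 2293 UMIs against 1995. They less often had a UMI of Cd3e (4.88% against 32.6%), Cd3d (12.2% against 41.0%) and Trdc (0% against 19.7%). Trac was in 12.2% (4.08 to 26.2%) against 27.5% (21.1 to 34.7%), and these intervals overlap. The receptor chain gene Trbc2 was in 51.2% against 58.4%, and in 43.2% against 41.8% after thinning. The positive cells held more Gata3 (70.7% against 26.97%) and Rora (82.9% against 41.6%), transcription factors of type 2 lymphocytes, and more Il2ra (48.8% against 20.2%) and Areg (48.8% against 18.0%). Kit, named above as a mast cell gene, was in 36.6% against 12.9%, and in 16.2% against 2.53% after thinning. Cpa3 was in 0% of both groups on day 0. After thinning Cd3e was in 5.41% against 20.9%, Gata3 in 48.6% against 18.4% and Areg in 43.2% against 14.6%. Foxp3, the regulatory T cell factor, was in 7.32% against 3.93% on day 0 and in 8.33% against 3.77% on day 7. Thinned, its day 7 shares were 0% against 3.13%. At day 42 Foxp3 was in 4 of the 15 positive cells (26.7%, 7.79 to 55.1%) against 3.77% (1.04 to 9.38%), and these intervals overlap. Cd3e was in 20.0% against 28.3% on day 42. After thinning, with 11 positive cells left, Foxp3 was in 27.3% against 2.53%, while Cd3e was in 27.3% against 21.5% and so turned. At day 7, 3 of the 12 had the mast cell gene Cpa3 (interval 5.49 to 57.2%), against 9 of the other 106 (8.49%, 3.96 to 15.5%), and the intervals overlap. The mast cell list summed to 101, 901 and 125 CPM in T cells on the 3 days. These companion genes were also chosen after seeing their values. What the mast cell transcripts contribute to the day 7 level was not tested.

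Counted by cell type, the comparison of day 7 with day 0 gave 31 pairs of gene and type with at least 10 CPM, of 56, and 21 of them were past 2-fold, each higher on day 7. In fibroblasts 7 of the 8 members could be compared and 5 were higher (Il1b, Il1r1, Il1r2, Il1rl1 and Il33), against 5.78% of all genes past 2-fold. In macrophages 5 could be compared and all 5 were higher (Il1a, Il1b, Il1rn, Il1r2 and Il18), against 13.1%. In keratinocytes 1 of 5 was higher, against 2.55%, and in colonocytes 2 of 4, against 6.72%. In endothelial cells 3 of 3 were higher, against 11.8%, in lymphatics 2 of 3, against 12.9%, and in T cells 3 of 4, against 9.28%. Among cells without S100a8 outside neutrophils and macrophages, 15 pairs were past 2-fold, and with Il1b left out of the count, 14 of the 21.

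Day 42 against day 0 gave 32 pairs, of which 11 were higher and 1 lower past 2-fold. In keratinocytes 2 of 5 were higher (Il1b and Il33) and 1 lower (Il1r2), against 5.18% of all genes. Il1b was at -0.042 among keratinocytes without S100a8, and with equal weight to clusters Il33 was at 0.63 and Il1r2 at -0.07, so none of the 3 calls held in every setting. In fibroblasts 2 of 6 were higher (Il1b and Il1rl1), against 3.07%, and in endothelial cells 3 of 5 (Il1b, Il1r1 and Il1r2), against 13.4%. Among cells without S100a8, Il1b turned to -0.42 in fibroblasts and -0.61 in endothelial cells. Endothelial Il1b was also at -0.57 without the highest Scrublet scores and -0.087 after thinning. Endothelial Il1r2 had no UMI left without the 10 highest cells, and endothelial Il1r1 was at 0.98 with the mean of CPM per cell. In T cells 2 of 4 were higher, against 12.2%, in lymphatics 1 of 5, against 17.5% and so near the background, and in secretory colonocytes 1 of 4, against 2.27%. In colonocytes 0 of 3 passed 2-fold, against 1.75%. Without Il1b, 6 of the 12 were left, and among cells without S100a8, 8 pairs were past 2-fold.

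Day 42 against day 7 gave 36 pairs, and the 9 past 2-fold were all lower on day 42. In fibroblasts 3 of 7 were lower (Il1b, Il1rl1 and Il33), against 4.73% of all genes, and in colonocytes 2 of 4 (Il1b and Il18), against 2.75%. In T cells 2 of 5 were lower, against 14.5%, in keratinocytes 1 of 5, against 3.81%, and in endothelial cells 1 of 5, against 6.57%. In lymphatics 0 of 5 passed, against 12.2%, and in neutrophils 0 of 5, against 8.76%. The 5 members compared in neutrophils (Il1a, Il1b, Il1rn, Il1r2 and Il18) thus had ratios within 2-fold, with 1513 cells on day 7 and 448 on day 42.

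Other genes of the pathway were 42 in 5 lists: further ligands, further receptors, signalling proteins, the inflammasome, and NF-kB feedback genes. Their counts are set beside the percentage of all genes past 2-fold in the same type. At day 7 against day 0, 3 of 27 measured genes were higher in colonocytes and none lower, beside 6.72%: Gsdmd, the pore that releases mature interleukin 1 beta and interleukin 18 (56.0 CPM on day 0, 218 on day 7 and 99.4 on day 42), the NF-kB inhibitor Tnfaip3, and Il18bp, which neutralises interleukin 18 (23.4 CPM on day 7). In fibroblasts 3 of 26 were higher, beside 5.78%: Nfkbiz (45.6, 107 and 45.2 CPM), Tnfaip3 (28.3, 138 and 20.4 CPM) and Nlrp3. The NF-kB list had a median log2 ratio of 0.71 in fibroblasts on day 7 against day 0 and -0.66 on day 42 against day 7, beside medians of -0.06 and 0.06 over all genes measured. These 2 list medians were 0.62 and -0.92 in lymphatics, 0.12 and -0.17 in colonocytes, and 0.19 and 0.15 in keratinocytes. They were -0.12 and -0.29 in endothelial cells and -0.26 and -0.29 in T cells. In macrophages the list median on day 7 against day 0 was 0.47. In macrophages 3 of 32 were higher, under the 13.1% of all genes: Nfkbia, Irak3 and the inflammasome sensor Nlrp3 (221 CPM on day 0 and 544 on day 7). In keratinocytes none of 23 passed 2-fold, beside 2.55%. On day 42 none of 23 passed there against day 0, beside 5.18%, and none of 22 against day 7, beside 3.81%. For day 7 against day 0 the other types were as follows. In lymphatics 6 of 26 were higher, beside 12.9% (Nfkbia, Nfkbiz, Relb, Tnfaip3, Casp4 and Il18bp). In T cells 1 of 28 was higher (Nlrp3), and in endothelial cells Nlrp3 was higher and Irak1 lower, of 28, both counts under the 9.28% and 11.8% of all genes. Nlrp3 was abundant in neutrophils, at 591 CPM on day 7 and 891 on day 42, and the neutrophil marker list went from 21.7 to 4471 CPM in T cells, from 0 to 2866 in endothelial cells and from 5.97 to 3007 in fibroblasts between day 0 and day 7. Its part in those Nlrp3 ratios was not tested. On day 42 against day 0 none of 26 passed in colonocytes, beside 1.75%, or in fibroblasts, beside 3.07%. Nor did any of 27 in secretory colonocytes, beside 2.27%. In that comparison 1 was higher and 1 lower of 26 in endothelial cells (Il18bp and Rela), beside 13.4%. The counts were 3 and 2 of 25 in lymphatics, beside 17.5%, and 2 and 2 of 30 in T cells, beside 12.2%. From day 7 to day 42, 2 of 26 were lower in colonocytes (Gsdmd and Il18bp), beside 2.75%, and 3 of 26 in fibroblasts (Nfkbiz, Tnfaip3 and Birc3), beside 4.73%. In endothelial cells 4 of 28 were lower, beside 6.57%, and in lymphatics 6 of 26, beside 12.2%, with none higher in these 4 types. In T cells 1 of 30 was higher and 3 lower, beside 14.5%. In neutrophils Irak3 alone of 27 was past 2-fold, and lower on day 42, beside 8.76%.

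The genes most like each member were found as the 3 highest Pearson correlations of log2(CPM + 10) over 30 sums of a type and day, among 7938 genes; the sums of a day share a library, and the values are descriptions. Il1a was followed by Fcgr4 (r = 0.99), Sirpb1c and Slc11a1, Il1b by Alox5ap (0.96), Nlrp3 and Plek, and Il1r2 by Trem1 (0.96), Slc16a3 and Clec4e. Those are genes of myeloid cells. Il1rn was followed by Syk (0.88), Rnf149 and Gpr35, Il18 by Gm3336 (0.92), Cyp2d10 and 2010109I03Rik, and Il33 by Pdpn (0.82), Cp and Cyp4b1. Il1r1 was followed by the stromal genes Mgp (0.92), Sulf1 and Vcam1, and Il1rl1 by Col27a1 (0.86), Tnfsf11 and Hsd11b1 (0.74).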

How the data were processed

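Single-cell RNA sequencing was made with 10x Chromium 3' chemistry on a HiSeq sequencer, from tissue digested with trypsin for 20 min, cleared of dead cells by Annexin V and passed through a 40 µm filter, per the labels' protocols. The deposited values are raw counts of each gene in each cell, all whole numbers. The deposited cell table gives day, cluster, cell type and a size factor, a ratio the authors made of each cell's total to 5283.43, the geometric mean of all totals. Cell Ranger 3.0.2 and the build mm10 come from the submitters' processing notes, and the annotation release, filter on cells, doublet treatment and method of cell typing are not given in the sources used here. Of the gene IDs, 30934 were in GENCODE M21 and 30468 had the same symbol there.

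Counts were summed per type and day and scaled to CPM, and no doublets were removed in the main values. The rule for naming genes was all 8 members, pathway genes past 2-fold, and the 3 genes most like each member among those of at least 50 CPM in any sum. Zero sums used a floor of 3 UMIs. Cells of type Unknown were left out of day comparisons. Members and gene lists were chosen with earlier results of these data known. The ratios were tested on simulated counts. Software was Python 3.11.15 with scipy 1.17.1, numpy 2.4.6, pandas 2.3.3, matplotlib 3.10.9 and, for Scrublet, scanpy 1.11.5. Other settings tried were removing cells under 1000 UMIs or 500 genes or over 20% mitochondrial UMIs; dropping in each library the 5% of highest Scrublet scores (its own threshold called 420, 0 and 267 cells); size factors by median of ratios; dropping mitochondrial and ribosomal protein genes from totals; averaging CPM over cells; thinning to 1000 UMIs; adding 1 CPM rather than 10; a log2 threshold of 1.5; equal weight to clusters; and dropping a gene's 10 highest cells. Leaving out cells with S100a8, and leaving Il1b out of counts, were added after seeing the data.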

Additional observations from a re-analysis of the deposited data

Results flagged for a closer look

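The decoy receptor Il1r2 had ratios of opposite sign between cell types for day 42 against day 0. It was higher on day 42 in endothelial cells (log2 ratio 1.53, from 0 UMIs on day 0 to 7 on day 42) and lower in keratinocytes (-1.03), which are 2.55 apart on the log2 scale. In T cells it was higher by 2.47, on 2 UMIs on day 0 and 13 on day 42, which is 3.49 from the keratinocyte ratio. Without the 10 cells with most Il1r2 no UMI was left in endothelial cells or T cells on day 42, the keratinocyte ratio was -0.07 with equal weight to clusters, and in cluster 9, which holds most keratinocyte Il1r2, it was 0.17. With 1 library per day these differences were not tested.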

How the results depend on the processing

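Of the 42 ratios past 2-fold in the 3 comparisons of days, 42 stayed so with the cell filter, with a pseudocount of 1 CPM and without mitochondrial and ribosomal protein genes, 39 without the highest Scrublet scores, 38 with size factors, 35 with the mean per cell or thinning, 30 without the 10 highest cells and 29 among cells without S100a8. With equal weight to clusters 20 of 23 stayed so. The count of 12 on day 42 against day 0 became 19 with a pseudocount of 1 CPM, 6 at a log2 threshold of 1.5, 7 without the 10 highest cells and 6 without Il1b. The count of 9 on day 42 against day 7 became 15, 14 without the 10 highest cells and 4 without Il1b. Among cells without S100a8 these ratios turned: Il1r2 in lymphatics (-0.57) and Il1rn in T cells (-0.45) on day 7 against day 0, and Il1b on day 42 against day 0 in endothelial cells (-0.61), fibroblasts (-0.42) and keratinocytes (-0.042). Without the highest Scrublet scores Il1r2 in lymphatics on day 7 was -0.46 and Il1b in endothelial cells on day 42 -0.57. With thinning Il1b on day 42 was -0.087 in endothelial cells and -0.28 in secretory colonocytes. The cause was not tested. Size factors put neutrophils above macrophages on day 7 for Il1a, Il1b and Il1rn, and the cell filter left under 50 neutrophils on day 42. Over genes and days, the leading type moved in 4 cases with the cell filter and 3 with size factors. It moved in 2 with the mean per cell and 1 without mitochondrial and ribosomal protein genes. The Il1rl1 ratios of fibroblasts stayed past 2-fold in every alternative that gave a value. Few UMIs limit many endothelial, lymphatic and T cell values, such as Il1r2 on day 0, with 0, 1 and 2 UMIs. No paired analysis was possible because each day is 1 library.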
